A study of Mus musculus with 16 samples.

Results

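The growth comparison reported here sets LKR10 cells suspended in methylcellulose (3D) against the same cells attached as a monolayer (2D), all of them carrying a lentiviral short hairpin RNA against Ankrd35. It rests on 8 of the study's 16 RNA sequencing libraries, chosen by their labels: 4 of the group 3D shAnkrd35 and 4 of the group 2D shAnkrd35. LKR10 is a murine lung tumour line. The 2D cells were grown in DMEM with serum, and the 3D cells in complete DMEM made viscous with methylcellulose. Methylcellulose was at 0.5%. Both groups were selected in puromycin (4 µg/ml) for 48 hours after infection with the pLKO vector and were harvested after another 96 hours, so selection and hairpin are shared. The other 8 libraries, 4 of 2D shGFP and 4 of 3D shGFP, carry a control hairpin against GFP. They are used to ask where the growth effect differs between hairpins. They also enter the filter on low values and the estimate of spread that all 16 libraries share in the limma tests. A single cell line stands behind each group, and the labels number the replicates without saying that they came from separate cultures. A p-value here thus reflects how far libraries spread within groups, and that spread could be technical.

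Methylcellulose is an inert polymer that keeps cells apart from a rigid surface, and growth in it is a standard assay of anchorage independence. Attached cells spread, build focal adhesions and actin stress fibres, and hold the coactivators YAP and TAZ in the nucleus, where they drive TEAD target genes. Amino acid shortage and other stresses raise translation of ATF4, a transcription factor that turns on amino acid synthesis, transport and transfer RNA charging genes.

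Levels are CPM, read counts scaled to the effective size of each library, and the 4 values given for a group are replicates 1 to 4 in that order. Fold changes are log2, 3D minus 2D, with the standard error (SE), and adjusted p-values come from limma with Benjamini-Hochberg adjustment over all genes tested. "Rose", "fell", "higher" and "lower" refer to an adjusted p under 0.05. The most abundant member of a list is the one with the highest mean CPM, which is not corrected for gene length. Coordinates are those of GENCODE M21 on mm10.

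Ankrd35, the hairpin's target and a gene of the ankyrin repeat family, was close to the limit of detection. The 2D shAnkrd35 libraries held 2, 6, 7 and 1 of its reads and the 3D shAnkrd35 libraries 12, 11, 9 and 9. Its level was 0.187 ± 0.137 CPM in 2D and 0.501 ± 0.0929 CPM in 3D (SD, n = 4). The groups did not overlap in reads, and the exact two-sided permutation p was 0.029, the smallest that 70 permutations allow. The ratio of 3D to 2D was 2.56 (95% interval 1.41 to 4.89, counting error only). With shGFP the levels were 0.219 ± 0.124 CPM in 2D and 0.597 ± 0.0546 CPM in 3D (SD, n = 4), so within a growth type the hairpins differed by about the spread between libraries or little more. The hairpin groups are therefore named as labelled, and the target's own reads give no check of the labels.

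The 8 libraries held 13821342 to 25461065 reads assigned to genes. Replicate 1 of 2D shAnkrd35 stood apart: its root mean square distance to the rest of its group was 0.291 on the log2 scale, against 0.156 to 0.216 in the other 3, and results that rest on it are given without it as well. Ribosomal protein transcripts made up 6.39 to 8.49% of reads in 2D and 4.83 to 5.69% in 3D, and mitochondrial transcripts 2.00 to 2.13% and 2.89 to 3.26%. Of the epithelial markers, Krt8 (4140 ± 432 CPM in 2D), Krt18 and Cdh1 were abundant, Epcam was at most 0.594 CPM in 2D and 1.40 CPM in 3D, and Cldn3 and Cldn4 were not among the genes analysed here, nor were the lung markers Nkx2-1, Sftpc, Sftpb and Napsa. Of other cell types, 5 of 11 fibroblast markers summed to 15.5 to 18.1 CPM in 2D and 12.2 to 18.2 CPM in 3D. The 4 of 12 endothelial markers present summed to 84.0 to 104 and 133 to 150 CPM, most of it Flt1, and the 4 of 12 macrophage markers to 82.9 to 90.4 and 152 to 177 CPM, most of it Cd14. None of the 14 lymphocyte and erythroid markers was among the genes analysed, and Ptprc, Csf1r, Adgre1, Pecam1 and Cdh5 were not among them either.

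Most of the transcriptome differed between the 3D and 2D libraries: 70.4% of the genes tested passed the test. Of these, 4235 were higher in 3D (34.4% of genes tested) and 4441 lower (36.0%), and the median of all genes was -0.02. At least 2-fold, 1348 genes rose (10.9%) and 351 fell (2.85%). In 3678 genes (29.9%) every 3D library lay above every 2D library, and in 3611 (29.3%) every 3D library lay below. The split of calls depends on scaling: 48.8% of called genes were higher with the deposited scaling and 59.0% with total reads, which shifted the median of all genes by 0.09.

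The changes followed base composition. Across 12217 genes with an annotated sequence, Spearman's rho of the log2 fold change with GC content was -0.47, and with exonic length 0.25. Genes are not independent replicates, so these are descriptions. Among the 1222 genes with the lowest GC content (median 39.6%) the median log2 fold change was 0.95, and among the 1222 with the highest (median 59.6%) it was -0.27. Genes at least 2-fold higher had a median GC content of 42.0% and a median length of 5519 bases, and those at least 2-fold lower 53.6% and 3131 bases. A fit after removal of a smooth trend on GC content and length from each library called 4790 genes higher (38.9%) and 3507 lower (28.5%), so that 57.7% of calls were higher. It kept 3288 of the higher and 2570 of the lower calls and turned 325 and 148 of them round. The median of all genes in that fit was 0.06. Values after this removal are called composition-adjusted below and are given where they change a statement. Genes without an annotated sequence keep their unadjusted values there. The part of library preparation in the trend was not tested.

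**Figure D1:**
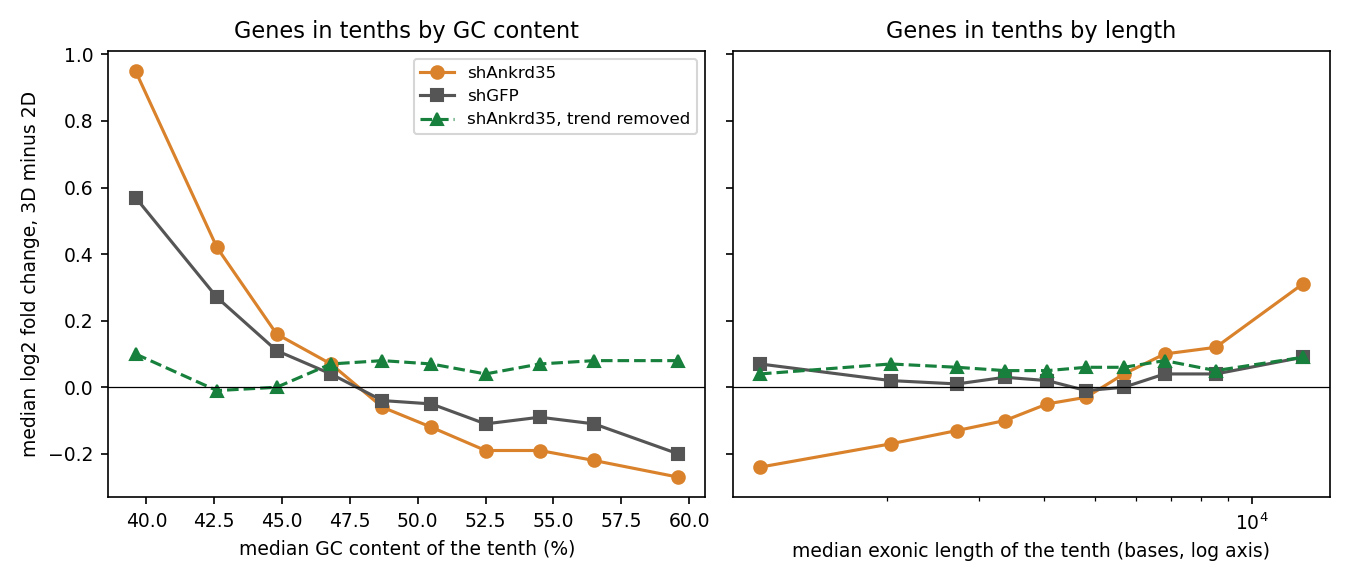
Median log2 fold change, 3D minus 2D (y axis), of genes binned by GC content (left, percent) and by exonic length (right, bases, log axis) with shAnkrd35, with shGFP, and with shAnkrd35 after removal of the trend. With shAnkrd35 the medians run from 0.95 at low GC to -0.27 at high GC, and after the removal they lie between -0.01 and 0.10.

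The largest rise was in Prl2c2 (chromosome 13, 12996125 to 13005383, minus strand, mm10), which encodes proliferin, a hormone of the prolactin family. It was at 0.967, 1.33, 1.38 and 1.04 CPM in 2D and at 118, 111, 118 and 113 CPM in 3D (6.52 ± 0.11, adjusted p = 2.09e-17). It belongs to a family of near-identical copies, so its reads may be split or shared among them. Muc5ac, the gel-forming mucin of stomach and airway surface cells (chromosome 7, 141788972 to 141819231, plus strand), went from 1.52, 1.57, 1.70 and 1.49 CPM to 75.8, 63.8, 73.1 and 70.5 CPM (5.42 ± 0.16, adjusted p = 4.14e-14). Akr1c19, an aldo-keto reductase, was at most 0.891 CPM in 2D and between 18.6 and 21.3 CPM in 3D (5.13 ± 0.30). All 3 were near the floor in 2D, where the added prior makes the fold change an understatement.

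Dmbt1, a mucosal scavenger receptor-like glycoprotein, was at most 1.06 CPM in 2D and at least 11.8 CPM in 3D (4.09 ± 0.27). C3, the central complement component, was at 50.6, 39.1, 36.6 and 37.8 CPM in 2D and at 463, 401, 451 and 477 CPM in 3D (3.45 ± 0.08, adjusted p = 3.49e-15). Agt, which encodes angiotensinogen, was at 7.61 to 9.49 CPM in 2D and 87.8 to 100 CPM in 3D (3.44 ± 0.09). Serpina7, the thyroxine-binding globulin gene, rose by 3.97 ± 0.30, and Meltf, which encodes melanotransferrin, by 3.35 ± 0.13. Ehf, an epithelial ETS transcription factor, was at 8.65, 6.61, 8.80 and 10.0 CPM in 2D and at 99.4, 102, 100 and 109 CPM in 3D (3.59 ± 0.12, adjusted p = 4.87e-13). Samd9l, an interferon-inducible growth restriction gene, rose by 3.47 ± 0.28, and the unconventional myosin Myo15b by 3.36 ± 0.22. Far1os, which rose by 3.40 ± 0.38, is named as the opposite-strand transcript of Far1, and whether counting used strand is not given in the sources used here.

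The largest fall was in Aldh1l2, the mitochondrial enzyme that oxidises 10-formyltetrahydrofolate (chromosome 10, 83487450 to 83534140, minus strand). It stood at 213, 183, 184 and 192 CPM in 2D and at 4.97, 6.17, 6.10 and 5.87 CPM in 3D (-5.04 ± 0.07, adjusted p = 5e-18). Of the 12 largest falls, Chac1, Trib3, Pycr1, Atf5, Cth and Aldh1l2 belong to amino acid and one-carbon metabolism or its stress response, and Ctgf, Cyr61, Ankrd1 and Acta2 to the targets of YAP, TAZ and serum response factor (SRF), groups described below. Avil, which encodes the actin-severing protein advillin, was at 60.7 to 73.2 CPM in 2D and 6.10 to 8.42 CPM in 3D (-3.25 ± 0.10). Dusp8, a phosphatase of the stress kinases, fell by 2.62 on the log2 scale. In none of the largest rises and falls did 2D and 3D libraries overlap, as the rule for choosing these genes required.

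**Figure D2:**
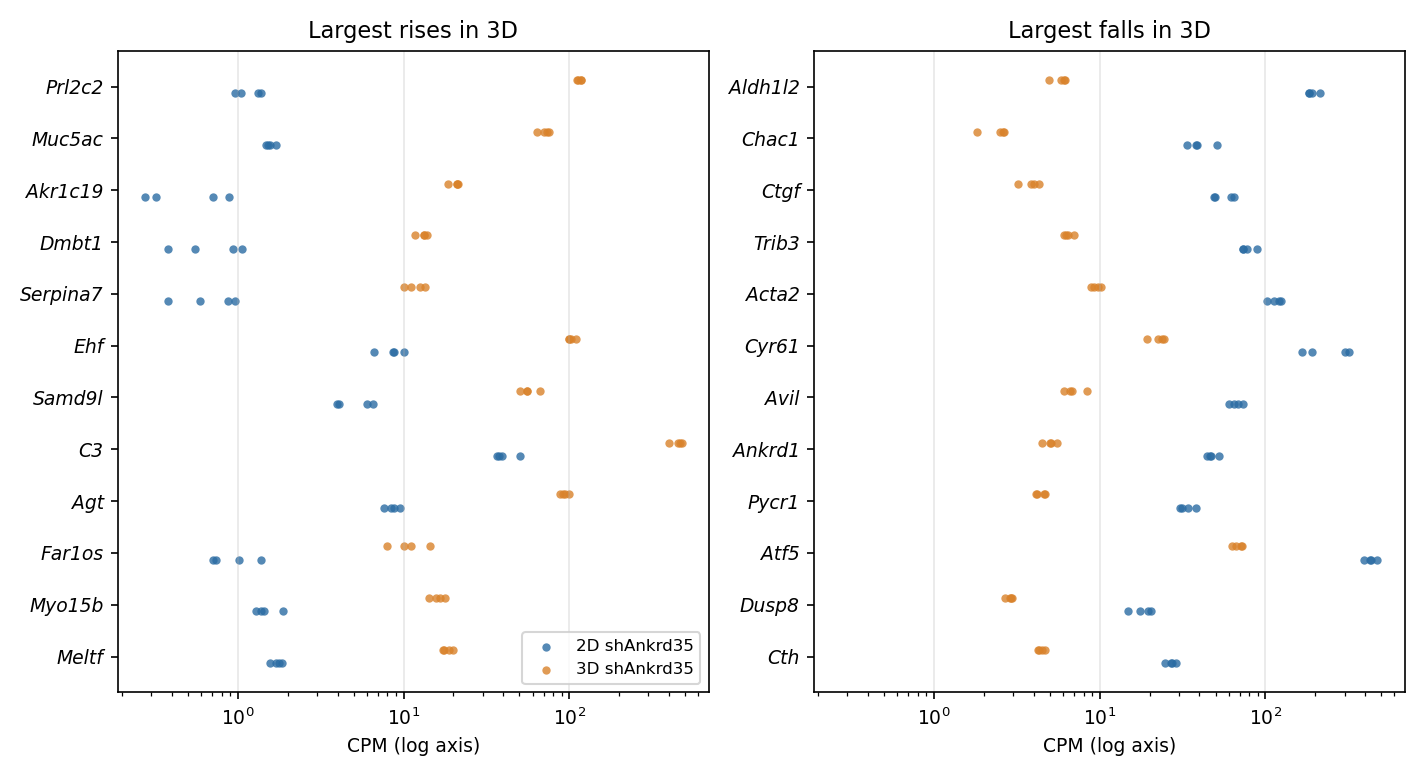
Level in each library (CPM, log axis) of the 12 genes with the largest rise (left) and the 12 with the largest fall (right), each point 1 library of 2D shAnkrd35 or 3D shAnkrd35. Prl2c2 moved from at most 1.38 to at least 111 CPM, and Aldh1l2 from at least 183 to at most 6.17 CPM.

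Targets of YAP and TAZ fell. Of 22 listed genes, 16 were lower (72.7%, against 36.0% of all genes) and 2 higher, with a median of -0.62. The list includes Yap1 and Wwtr1, the genes of the coactivators themselves. Ctgf, a matricellular growth factor, was at 49.2, 62.1, 64.5 and 49.7 CPM in 2D and at 3.22, 3.99, 4.28 and 3.85 CPM in 3D (-3.84 ± 0.13, adjusted p = 2.06e-13). Ankrd1, a nuclear and sarcomeric ankyrin repeat protein, was at 44.7, 52.2, 46.0 and 46.9 CPM in 2D and at 5.09, 5.0, 4.49 and 5.56 CPM in 3D (-3.21 ± 0.07, adjusted p = 8.87e-16). Cyr61, another matricellular factor, varied more among the 2D libraries, at 192, 321, 303 and 167 CPM, and was at 22.6, 24.3, 23.8 and 19.3 CPM in 3D (-3.40 ± 0.23). Amotl2, an angiomotin that restrains YAP, was at 183 to 193 CPM in 2D and 35.9 to 40.1 CPM in 3D (-2.29 ± 0.05). Axl, a receptor tyrosine kinase and the most abundant member, fell from 1630 ± 24.2 to 1160 ± 33.4 CPM (SD, n = 4; -0.49 ± 0.04). Yap1 itself fell by 0.13, and Wwtr1, which encodes TAZ, had a log2 fold change of 0.05 and did not pass the test. F3, tissue factor, and Myof went the other way, with 0.89 ± 0.08 and 0.20. After composition adjustment 18 members were lower and 4 higher. Ctgf and Cyr61 had no annotated sequence, so their unadjusted values enter this count.

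TEAD factors bind the core GGAATG (reverse CATTCC), and the windows before the start sites of Ankrd1 and Cyr61, which with Ctgf fell most, are shown because both hold it. Of the 22 members, 16 had an entry among the RefSeq promoter windows (GRCm38.p6), and in 9 of these (56.2%) the core was found on either strand within 250 bases before a start site. Yap1 and Wwtr1 are among the 9. Among all 27025 genes with an entry the share was 14.4%, and among 9453 tested genes with one it was 12.7%. A match is a description of these letters and not a mapped binding site. In the sequences, written 5′ to 3′ on the gene's strand, capitals mark the core, which begins 210 and 123 bases before the start in Ankrd1 (chr19:36119845-36120094, minus strand) and 103 bases before it, as the reverse, in Cyr61 (chr3:145649986-145650235, minus strand).
Ankrd1: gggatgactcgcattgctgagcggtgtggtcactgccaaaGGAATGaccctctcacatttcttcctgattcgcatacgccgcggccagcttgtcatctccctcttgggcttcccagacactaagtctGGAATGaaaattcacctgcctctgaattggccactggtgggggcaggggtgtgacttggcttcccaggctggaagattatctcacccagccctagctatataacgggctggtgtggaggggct
Cyr61: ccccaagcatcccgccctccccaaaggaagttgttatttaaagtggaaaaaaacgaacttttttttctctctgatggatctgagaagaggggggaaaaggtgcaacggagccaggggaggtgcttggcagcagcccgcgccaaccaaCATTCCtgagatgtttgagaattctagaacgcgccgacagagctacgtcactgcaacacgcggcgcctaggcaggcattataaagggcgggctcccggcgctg

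Actin cytoskeleton and SRF target genes fell with them: 18 of 21 were lower (85.7%) and 0 higher, with a median of -0.59. Acta2, smooth muscle actin, was at 102, 125, 121 and 113 CPM in 2D and at 9.21, 10.2, 9.82 and 8.83 CPM in 3D (-3.58 ± 0.07, adjusted p = 6.22e-16). Cnn2, the actin-binding protein calponin 2, was at 251 to 310 CPM in 2D and 47.4 to 56.1 CPM in 3D (-2.43 ± 0.06). Csrp1, a LIM protein of actin bundles, fell from 250 ± 9.61 to 129 ± 4.49 CPM (SD, n = 4). Myh9, the non-muscle myosin heavy chain and the most abundant member, was at 6590, 5060, 4630 and 4630 CPM in 2D, where replicate 1 was high, and at 3800 to 4420 CPM in 3D (-0.30 ± 0.09, adjusted p = 0.00832). The cytoplasmic actins Actb and Actg1 fell by 0.61 and 0.63. After composition adjustment 19 were lower and 2, Tagln2 and Fhl2, higher.

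Integrins and focal adhesion genes moved both ways. Of 23, 12 were lower (52.2%) and 6 higher (26.1%, against 34.4% of all genes). The adhesion plaque proteins Zyx (zyxin, -1.02 ± 0.05), Vcl, Tln1 and Flna were lower. Among the matrix receptors, Itga6, the laminin-binding subunit alpha 6, was at 70.5, 53.4, 57.3 and 65.4 CPM in 2D and at 136, 138, 138 and 151 CPM in 3D (1.20 ± 0.07, adjusted p = 3.3e-10). Itgb3, the beta 3 subunit of vitronectin receptors, rose from 33.4 ± 3.83 to 72.5 ± 2.83 CPM (SD, n = 4; 1.12 ± 0.06). The collagen-binding subunit Itga2 rose by 1.88 ± 0.15, while Itga3, Itgb5 and Itgb1 were lower by 0.68, 0.49 and 0.26 on the log2 scale.

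Matrix genes moved both ways, with 10 of 26 higher and 10 lower, near the shares among all genes, and a median of 0.07 that was -0.07 when only genes with a mean of at least 5 CPM were kept and 0.16 without replicate 1 of 2D shAnkrd35. After composition adjustment 12 were higher and 8 lower, with a median of 0.25. Thbs1, thrombospondin 1, was at 655, 562, 615 and 679 CPM in 2D and at 168, 177, 182 and 182 CPM in 3D (-1.82 ± 0.06, adjusted p = 1.13e-13). Collagen VI genes rose: Col6a1 was at 225 to 241 CPM in 2D and 477 to 514 CPM in 3D (1.08 ± 0.04), and Col6a2 rose by 1.28 ± 0.04. Fn1, fibronectin and the most abundant member, fell from 2800 ± 265 to 2120 ± 83.4 CPM (SD, n = 4). Among proteases and inhibitors 10 of 21 were lower and 6 higher, with a median of -0.42 and, after composition adjustment, the same counts and -0.15. Plau, the urokinase gene, was at 35.5 to 39.7 CPM in 2D and 6.95 to 9.67 CPM in 3D (-2.21 ± 0.08). Mmp13, collagenase 3, fell by 1.84, and the metalloprotease inhibitors Timp3 and Timp2 by 1.67 and 0.52. The membrane sheddases Adam10 and Adam17 rose by 0.84 and 0.70.

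Readouts of MAPK signalling were mostly lower. Of 23 EGFR ligand and MAPK output genes, 15 fell (65.2%) and 4 rose, with a median of -0.46. Dusp6, the ERK phosphatase, was at 208, 214, 227 and 201 CPM in 2D and at 76.7, 76.3, 77.4 and 81.6 CPM in 3D (-1.45 ± 0.05, adjusted p = 9.64e-13). Etv5, an ETS factor downstream of ERK, was at 113 to 127 CPM in 2D and 54.6 to 57.2 CPM in 3D (-1.09 ± 0.05), and Dusp4 fell by 0.77. The receptor Egfr was higher, by 0.83 ± 0.10, as were Btc and Ereg, and of these 3 only Egfr kept its direction after composition adjustment (0.51, against -0.36 and -0.39). Of 22 immediate early transcription factors 13 were lower and 3 higher (median -0.47), and after composition adjustment 9 and 6 (-0.19). Myc was at 143, 175, 165 and 171 CPM in 2D and at 70.7, 74.6, 76.7 and 73.9 CPM in 3D (-1.14 ± 0.07, adjusted p = 5.68e-10), and Jun and Junb fell by 0.58 and 0.60. Nr4a2, an orphan nuclear receptor, rose from 8.37 ± 1.20 to 20.4 ± 1.85 CPM (SD, n = 4).

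The ATF4 and amino acid response had the lowest median of the described lists, -1.03. Of its 30 genes 26 were lower (86.7%), 16 of them at least 2-fold, and 2 higher. Chac1, which degrades glutathione (chromosome 2, 119351229 to 119354381, plus strand), was at 33.7, 51.3, 38.7 and 38.1 CPM in 2D and at 2.61, 2.63, 1.82 and 2.49 CPM in 3D (-4.03 ± 0.13, adjusted p = 2.27e-13). Trib3, a pseudokinase induced by ATF4, was at 77.2, 89.2, 73.5 and 73.2 CPM in 2D and at 6.24, 6.06, 7.02 and 6.44 CPM in 3D (-3.58 ± 0.07, adjusted p = 1.67e-16). Atf5, a related bZIP factor, was at 391 to 473 CPM in 2D and 63.2 to 72.4 CPM in 3D (-2.66 ± 0.06). Mthfd2, an enzyme of mitochondrial folate metabolism, fell from 113 ± 8.11 to 24.1 ± 1.24 CPM (SD, n = 4), and Slc38a2, an amino acid transporter and the most abundant member, from 713 ± 73.3 to 524 ± 19.3 CPM. Atf4 itself was at 259, 354, 315 and 313 CPM in 2D and at 127, 134, 136 and 118 CPM in 3D (-1.26 ± 0.07).

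The steps of the pathway moved together. Serine synthesis (Phgdh -0.95, Psat1 -0.48, Psph -2.21), asparagine synthesis (Asns -2.20), transfer RNA charging (Aars -0.91, Gars -0.93, Sars -1.17, Wars -0.65) and the exchanger subunits Slc7a5 (-1.60) and Slc3a2 (-0.84) were all lower. Outside the list, Pycr1 of proline synthesis was at 30.7 to 38.2 CPM in 2D and 4.11 to 4.69 CPM in 3D, and Cth of cysteine synthesis at 24.8 to 28.7 and 4.24 to 4.68 CPM. The 2 higher members were the transporters Slc7a3 (2.39 ± 0.25), which stayed under 6 CPM, and Slc7a11 (0.82 ± 0.18), whose value was 0.01 after composition adjustment. The list had 26 members lower and 1 higher after that adjustment.

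The letters TGATGNAA (reverse TTNCATCA) are the core of composite elements bound by ATF4 with C/EBP partners. They were found on either strand within the same 250-base windows in 8 of 26 list members with an entry (30.8%), against 3.91% of all genes with an entry and 2.27% of tested genes. Trib3 and Atf5 were not among the 8, which says only that these letters are not in those windows. Chac1 and Asns are shown as members that hold the core and lie among the larger falls. It begins 193 bases before the start in Chac1, as the reverse (chr2:119350992-119351241, plus strand), and 23 bases before it in Asns (chr6:7693210-7693459, minus strand).
Chac1: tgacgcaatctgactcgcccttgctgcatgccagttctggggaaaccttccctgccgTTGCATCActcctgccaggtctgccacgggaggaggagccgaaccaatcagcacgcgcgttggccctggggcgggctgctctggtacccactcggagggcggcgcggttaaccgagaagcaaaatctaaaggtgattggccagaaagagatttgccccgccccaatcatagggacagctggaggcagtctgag
Asns: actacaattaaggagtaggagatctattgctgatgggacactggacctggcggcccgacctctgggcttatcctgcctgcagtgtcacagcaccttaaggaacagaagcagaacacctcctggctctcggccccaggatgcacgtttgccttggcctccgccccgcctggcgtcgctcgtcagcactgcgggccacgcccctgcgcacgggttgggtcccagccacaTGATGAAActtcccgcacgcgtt

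Endoplasmic reticulum chaperones and the unfolded protein response had few calls, and their number depended on base composition. Of 22 genes 7 were higher (31.8%) and 4 lower (18.2%), both below the shares among all genes, and 11 did not pass the test. After composition adjustment 13 were higher (against 38.9% of all genes) and 4 lower. Hsp90b1, the chaperone GRP94, was at 224, 186, 197 and 240 CPM in 2D and at 383, 367, 400 and 391 CPM in 3D (0.87 ± 0.10, adjusted p = 1.83e-06). Dnajc3, an inhibitor of PERK kinase, rose by 0.85 ± 0.12, and Pdia3, a disulfide isomerase, by 0.21 ± 0.04. Canx, calnexin and the most abundant member, overlapped between groups (0.22 ± 0.07) and had the opposite sign after composition adjustment, -0.24.

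Genes of p53 and the CDK inhibitors were mostly lower, 13 of 22 (59.1%), with 5 higher. Cdkn1a, which encodes the inhibitor p21, was at 274, 314, 300 and 268 CPM in 2D and at 121, 127, 117 and 111 CPM in 3D (-1.28 ± 0.06, adjusted p = 1.37e-11). Plk2, a polo-like kinase, was at 154 to 178 CPM in 2D, highest in replicate 1, and 68.0 to 72.6 CPM in 3D (-1.20 ± 0.05). Sesn2, a stress-induced inhibitor of mTORC1 that is in the ATF4 list too, fell from 126 ± 9.87 to 46.2 ± 2.26 CPM (SD, n = 4). Ccng1, the most abundant member, overlapped between groups (-0.28 ± 0.13, adjusted p = 0.0689), and it passed the test without replicate 2 of 2D shAnkrd35 (-0.37) or replicate 4 of 3D shAnkrd35 (-0.34), and after composition adjustment (-0.89, adjusted p = 5.14e-08).

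Replication genes mostly fell, while more mitotic genes rose than fell. Of 30 S phase genes 25 were lower (83.3%) and 3 higher, with a median of -0.32. E2f1, the transcription factor of S phase entry, was at 62.5, 67.7, 62.1 and 59.7 CPM in 2D and at 38.4, 36.1, 37.3 and 35.7 CPM in 3D (-0.77 ± 0.06). The origin licensing factor Cdt1 fell by 0.82, and the helicase subunits Mcm2 and Mcm7 by 0.64 and 0.41. The 3 that rose were Ccne2 (1.75), Pola1 (1.33) and Gins1 (0.26). Of 30 G2 and mitosis genes 17 were higher (56.7%) and 3, Foxm1, Ube2c and Aurkb, lower by 0.36, 0.31 and 0.26. The median of this list was 0.17, and 10 members did not pass the test. After composition adjustment 20 were higher and 4 lower, with a median of 0.26. Ccna2, cyclin A2, was at 62.8, 53.8, 55.2 and 57.4 CPM in 2D and at 83.8, 82.8, 86.9 and 86.6 CPM in 3D (0.57 ± 0.06, adjusted p = 3.03e-07). The kinetochore motor Cenpe was at 19.5, 9.75, 12.4 and 14.1 CPM in 2D and at 85.3, 85.5, 84.1 and 104 CPM in 3D (2.72 ± 0.28), and Mki67, the proliferation antigen, at 143, 80.6, 87.6 and 118 and at 412, 402, 410 and 483 CPM (2.03 ± 0.22). In both genes replicate 1 was the highest of 2D and replicate 4 the highest of 3D. Top2a, the most abundant member, was 0.30 ± 0.09 higher with overlapping groups, and -0.10 after composition adjustment.

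All 30 cytosolic ribosomal protein genes were lower, with a median of -0.68 and a range from -1.02 to -0.34. Rps14 was at 2050, 2130, 2230 and 1990 CPM in 2D and at 1040, 1030, 1110 and 957 CPM in 3D (-1.02 ± 0.06, adjusted p = 1.5e-10). Rps3 fell from 1760 ± 143 to 897 ± 42.7 CPM (SD, n = 4). Rps2, the most abundant, fell by 0.37, and its value after composition adjustment was -0.04 with an adjusted p of 0.389. The adjusted fit called 29 members lower. Elongation factors gave the largest losses in CPM of any genes: Eef2 went from 16300, 13700, 12200 and 11700 to 8000, 7090, 7660 and 7850 CPM, and Eef1a1 from 17500 to 18800 to 12100 to 13600 CPM. The next losses were the lectin Lgals1, the matrix proteins Bgn and Fbln2, and Rplp1.

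Mitochondrially encoded transcripts were among the largest gains in CPM, and their direction depended on base composition. Of 10 genes 7 were higher, with a median of 0.63, and the median was -0.44 after composition adjustment, when 1 was higher and 5 lower. Those not called with all libraries unadjusted were mt-Co2, mt-Co3 and mt-Atp6, at means of only 7.64, 4.92 and 2.18 CPM in 2D. In each of them replicate 3 of 3D shAnkrd35 stood far above the rest of its group, at 30.2, 15.6 and 15.3 CPM. mt-Cytb, cytochrome b, was at 2300, 2440, 2400 and 2690 CPM in 2D and at 5830, 5630, 5450 and 5310 CPM in 3D (1.18 ± 0.10), and stayed higher at 0.41. mt-Nd1 rose by 0.94 ± 0.10, mt-Nd5 by 0.67 ± 0.08 and mt-Nd6 by 0.73 ± 0.08, and their adjusted values were -0.02, -0.40 and -0.72. mt-Co1, the most abundant, was 0.19 ± 0.06 higher, did not pass the test without replicate 4 of 3D shAnkrd35 (0.15), and had an adjusted value of -0.49. The nuclear long noncoding RNA Malat1 was also among the largest gains, from 951, 440, 569 and 744 CPM to 2780, 3200, 2580 and 2610 CPM (2.10 ± 0.25), as was the ion cotransporter gene Slc12a2 (1.27 ± 0.12).

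Hypoxia and glycolysis genes leaned lower in the suspended cells, and this too depended on base composition. Of 24 hypoxia response genes 13 were lower (54.2%) and 7 higher, with a median of -0.25, and of 18 glycolysis genes 12 were lower (66.7%) and 1 higher, with a median of -0.26. Both medians were 0.01 after composition adjustment, against 0.06 for all genes. Of the hypoxia genes 9 were then lower and 9 higher, and of the glycolysis genes 7 and 6. P4ha1, a collagen prolyl hydroxylase, was at 110, 97.2, 104 and 99.8 CPM in 2D and at 55.8, 54.2, 56.7 and 51.1 CPM in 3D (-0.91 ± 0.05, adjusted p = 3.34e-11). Egln3, an oxygen-sensing prolyl hydroxylase, fell by 0.60, while Epas1, which encodes HIF-2 alpha, rose from 10.2 ± 1.23 to 19.6 ± 0.517 CPM (SD, n = 4). Ldha, lactate dehydrogenase A, overlapped between groups at -0.06 ± 0.05 and was 0.19 after adjustment. Among glycolytic enzymes Pfkp, platelet phosphofructokinase, fell from 69.5 ± 3.84 to 35.8 ± 0.712 CPM, Aldoc and Tpi1 fell by 0.90 and 0.55, and Pkm, pyruvate kinase, rose by 0.15 ± 0.05.

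Cholesterol synthesis was lower along most of its length. Of 23 genes 18 fell (78.3%) and 2 rose, with a median of -0.68, and the composition-adjusted fit called 20 lower and 1 higher. Insig1, which retains the sterol sensor SCAP and is itself a sterol-regulated gene, was at 73.2, 71.2, 69.3 and 70.2 CPM in 2D and at 35.5, 37.8, 37.8 and 34.2 CPM in 3D (-0.97 ± 0.05, adjusted p = 3.98e-11). Cyp51, lanosterol demethylase, was at 109 to 118 CPM in 2D and 52.6 to 61.4 CPM in 3D (-0.95 ± 0.05). Srebf2, the master regulator and most abundant member, fell from 681 ± 55.2 to 446 ± 8.78 CPM (SD, n = 4). Hsd17b7 (0.71) and Idi1 (0.53) were higher.

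Antioxidant and detoxification genes leaned upward. Of 26 NRF2 and glutathione genes 17 were higher (65.4%) and 4 lower, with a median of 0.39. Without replicate 1 of 2D shAnkrd35 these were 15, 5 and 0.26. Gclc, the catalytic subunit of glutathione synthesis, was at 273, 255, 277 and 264 CPM in 2D and at 538, 579, 560 and 565 CPM in 3D (1.07 ± 0.04, adjusted p = 3.34e-12). Cat, catalase, was at 59.0 to 60.5 CPM in 2D and 119 to 126 CPM in 3D (1.03 ± 0.04), and Gsr, glutathione reductase, rose by 0.74 ± 0.04. The transferase Gstm1, the most abundant, rose by 0.36 ± 0.14 with overlapping groups, was 0.18 without replicate 1 of 2D shAnkrd35, and missed the threshold without replicate 2 (0.34) or replicate 3 (0.31) of 3D shAnkrd35. Aldo-keto reductases and aldehyde dehydrogenases split, 11 of 23 higher (47.8%) and 10 lower (43.5%), and 12 and 7 after composition adjustment. Aldh3a1 rose from 97.8 ± 4.64 to 242 ± 8.52 CPM and Aldh1a1 from 370 ± 7.47 to 701 ± 17.2 CPM (SD, n = 4), and Aldh1a3 from 12.2 to 13.9 CPM up to 40.5 to 44.9 CPM, all of them retinal or aldehyde oxidising enzymes. Mitochondrial Aldh2 fell by 0.51. The copies of the Akr1c and Gsta families are alike in sequence, and their reads may not be fully separated.

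Inflammatory genes did not share a direction. Of 18 NF-kB targets and cytokines 8 were higher (44.4%) and 4 lower (22.2%). Ccl2, a monocyte chemokine, was at 4.14, 5.52, 5.39 and 5.94 CPM in 2D and at 22.4, 22.4, 23.9 and 24.0 CPM in 3D (2.14 ± 0.11, adjusted p = 3.49e-11). Csf1, macrophage colony-stimulating factor, was at 195 to 214 CPM in 2D and 57.0 to 65.0 CPM in 3D (-1.76 ± 0.05). Vcam1 rose by 0.82 ± 0.07 but had a value of 0.01 after composition adjustment. Of 17 interferon response genes 10 were lower (58.8%) and 4 higher (median -0.43), and after composition adjustment 7 and 3 (-0.16). The antigen presentation genes H2-K1 and H2-D1 fell by 1.21 and 0.52, and Bst2, tetherin, fell from 17.3 ± 3.82 to 5.09 ± 0.845 CPM (SD, n = 4).

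Gastrointestinal epithelial genes rose. Of 25 listed genes only 11 were among those tested, and 9 of these were higher (81.8%, 8 of them at least 2-fold) and 1, Cdx2, lower, with a median of 1.62. A gene silent in both groups would be missing from the table, so the 11 are not the whole list. Besides Muc5ac, the intestinal lectin Lgals4 was at 5.25, 7.46, 6.96 and 7.53 CPM in 2D and at 56.3, 44.7, 56.5 and 52.1 CPM in 3D (2.94 ± 0.11, adjusted p = 1.06e-12). Hnf4a, a master regulator of gut and liver epithelium, was at 8.93, 8.18, 10.2 and 10.8 CPM in 2D and at 30.6, 30.1, 30.7 and 29.5 CPM in 3D (1.67 ± 0.12).

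Junction, keratin and lung lineage genes had more members higher than lower. Of 21 epithelial junction and keratin genes 11 were higher (52.4%) and 7 lower (33.3%), with a median of 0.16. After composition adjustment 13 were higher and 2 lower, with a median of 0.33. Tjp3, a tight junction scaffold, was at 4.90 to 5.62 CPM in 2D and 28.1 to 30.6 CPM in 3D (2.43 ± 0.11), and Elf3, an epithelial ETS factor, rose from 5.62 ± 0.642 to 15.1 ± 1.27 CPM (SD, n = 4). Krt8, the most abundant, was 0.22 lower with overlapping groups and 0.13 after composition adjustment. Of 11 lung lineage genes in the table, from a list of 25, 7 were higher and 2 lower (median 0.28), and after composition adjustment 8 and 1 (0.55). Sox9, a factor of distal lung progenitors, was at 45.7, 47.2, 54.5 and 55.3 CPM in 2D and at 129, 128, 127 and 113 CPM in 3D (1.29 ± 0.07, adjusted p = 8.7e-11), and the pioneer factor Foxa1 rose by 0.47 ± 0.06. Aqp5, a water channel and the most abundant, did not pass the test (0.14 ± 0.10), and was higher after composition adjustment (0.55, adjusted p = 2.07e-05). In bulk RNA a change in the share of cells of 1 state and a change of RNA per cell cannot be told apart.

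**Figure D3:**
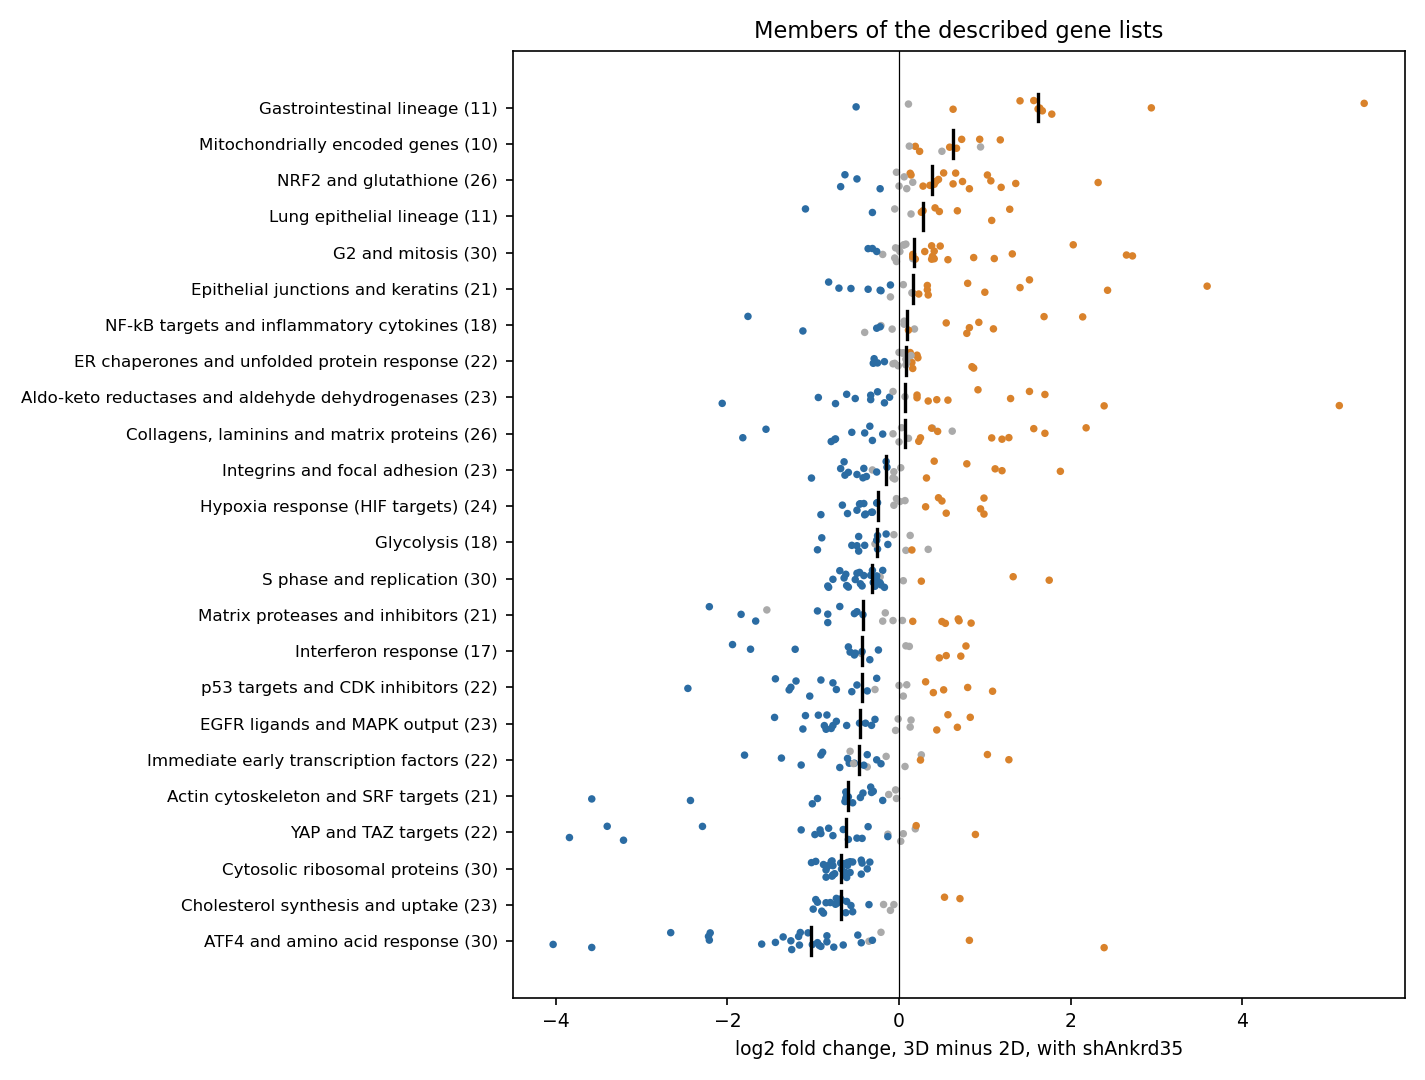
Log2 fold change, 3D minus 2D with shAnkrd35 (x axis), of every tested member of the 24 described lists, with the number of members in brackets. Points are orange where higher and blue where lower at an adjusted p under 0.05 and grey otherwise, and black bars are list medians, from -1.03 for the ATF4 list to 1.62 for gastrointestinal genes, 0.63 for mitochondrial genes (-0.44 after composition adjustment).

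The remaining lists are read against 34.4% of all genes higher and 36.0% lower, and after composition adjustment against 38.9% and 28.5%. The median of all genes after adjustment was 0.06. Of 20 mesenchymal transition genes 12 were lower and 5 higher, and of 27 proteasome subunits 14 were lower (51.9%) and 4 higher (14.8%). After composition adjustment these were 9 and 4, and 15 and 5. Lysosome and autophagy genes had 15 of 30 lower and 5 higher, and 10 lower and 11 higher after adjustment. Fatty acid synthesis had 10 of 13 lower and 3 higher (median -0.31), and 6 and 3 after adjustment (-0.09). Ribosome biogenesis, with 44.8% lower and 31.0% higher, lay nearer to the background. Nuclear oxidative phosphorylation had 42.9% lower and 17.9% higher, the latter below the share among all genes. Without replicate 1 of 2D shAnkrd35, 17 of its 28 genes were lower and 5 higher (-0.18). Of 29 ribosome biogenesis genes 15 were then lower and 9 higher (-0.19). With all libraries the medians of these 2 lists were both -0.12 and became 0.05 after adjustment. Citric acid cycle genes had 11 of 20 lower and 4 higher (-0.17), and 6 and 8 after adjustment (0.04). Of 7 replication-dependent histone genes in the table, from a list of 26, 5 were higher, and 6 after adjustment. Circadian genes had 10 of 19 higher and 7 lower, and 13 and 2 after adjustment. Iron genes had 5 of 16 higher and 3 lower, and 8 and 2 after adjustment. IGF axis genes had 2 of 8 higher and 4 lower, and 3 and 4 after adjustment. Wnt, Notch and hedgehog targets had 2 of 12 higher and 6 lower (-0.15), and 5 and 4 after adjustment (0.12).

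The same growth comparison with shGFP gave 4331 genes higher (35.2%) and 3954 lower (32.1%), 67.2% in all, with 7.56% at least 2-fold higher and 3.83% at least 2-fold lower. Across genes the 2 growth effects, which share no library, had a Pearson r of 0.81 and a Spearman rho of 0.77, given as a description because genes are not independent and GC content is common to both. Of the genes called with both hairpins, 3043 were higher in both, 2979 lower in both and 399 opposite. The difference of the growth effects was tested directly: it was above 0, meaning higher or less low in 3D with shAnkrd35 than with shGFP, in 2110 genes (17.1%), and below 0 in 2297 (18.6%). Without replicate 1 of 2D shAnkrd35 the counts were 2852 and 2897.

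**Figure D4:**
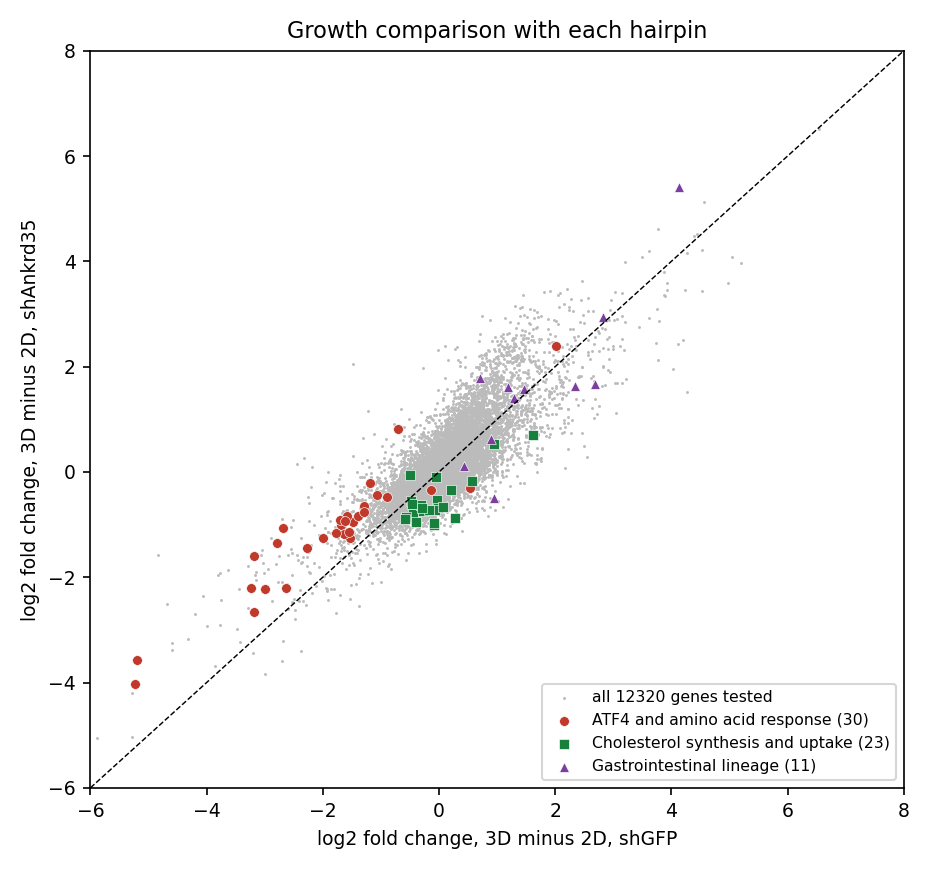
Log2 fold change, 3D minus 2D, of all genes tested with shGFP (x axis) and with shAnkrd35 (y axis), with 3 lists marked and equality as a dashed line. ATF4 list members lie mostly above the line, with medians of -1.62 with shGFP and -1.03 with shAnkrd35, and cholesterol genes mostly below it, with medians of -0.09 and -0.68.

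The ATF4 response fell less with shAnkrd35. The difference was above 0 in 26 of 30 members (against 17.1% of all genes) and below 0 in 1, with a median of 0.66, and 26 and 1 were called without replicate 1 of 2D shAnkrd35. Trib3 was at 297, 268, 295 and 275 CPM in 2D shGFP and 7.65, 8.07, 7.29 and 7.66 CPM in 3D shGFP, against means of 78.3 and 6.44 CPM with shAnkrd35 (difference 1.61 ± 0.10, adjusted p = 1.19e-08). The 3D levels of both hairpins were thus close and the 2D levels were not. Slc7a5, a subunit of the large neutral amino acid exchanger, showed the same layout, with 979 ± 72.3 CPM in 2D shGFP, 282 to 364 CPM in 2D shAnkrd35 and 101 to 114 CPM in all 8 libraries of 3D (difference 1.57 ± 0.11). Ero1l, an oxidase of the endoplasmic reticulum, was at 223 ± 14.7 CPM in 2D shGFP and 78.8 to 96.2 CPM in 2D shAnkrd35, and at 54.7 to 69.4 CPM in 3D (difference 1.57 ± 0.10). Endoplasmic reticulum chaperones had 12 of 22 differences above 0 and 2 below.

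Other genes with a higher difference came from several families. Tenm4, a teneurin adhesion protein, fell from 86.5 ± 7.68 to 2.94 ± 0.399 CPM with shGFP (SD, n = 4) and from 15 to 21.9 down to 5.38 to 6.03 CPM with shAnkrd35 (difference 3.26 ± 0.16). Klf4, a Krüppel-like factor, fell from 145 ± 3.49 to 46.3 ± 1.63 CPM with shGFP, and with shAnkrd35 from 82.3 to 97.5 CPM to 70.7 to 78.2 CPM, a fall that was 0.04 after composition adjustment (difference 1.39 ± 0.07). Myrf, a membrane-bound transcription factor, and Cyb5r1, a cytochrome b5 reductase, fell with both hairpins and less with shAnkrd35 (differences 1.21 and 1.15). Mmp28, a matrix metalloprotease, was the gene of these 8 with opposite directions, at 31.5 to 32.8 CPM in 2D and 47.8 to 51.7 CPM in 3D with shAnkrd35 and at 42.2 ± 3.38 and 30.0 ± 0.758 CPM with shGFP (difference 1.11 ± 0.08).

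Cholesterol genes fell more with shAnkrd35. The difference was below 0 in 18 of 23 (against 18.6% of all genes) and above 0 in 1, with a median of -0.51, and the same counts held without replicate 1 of 2D shAnkrd35. Insig1 was at 47.4 ± 1.01 CPM in 2D shGFP and 44.5 ± 2.54 CPM in 3D shGFP (SD, n = 4), a log2 fold change of -0.09, against -0.97 with shAnkrd35 (difference -0.87 ± 0.07, adjusted p = 2.6e-07). Here the 2D level with shAnkrd35 was the higher and its 3D level the lower of the pair. NF-kB targets had 14 of 18 differences below 0, with medians of 0.84 with shGFP and 0.09 with shAnkrd35, and 17 of 30 G2 and mitosis genes were below 0, with medians of 0.71 and 0.17. S phase genes had 16 of 30 below 0 and actin and SRF genes 11 of 21. Ribosomal protein genes had 3 of 30 below 0 and none above, 17 below without replicate 1 of 2D shAnkrd35, and 6 above and 0 below after composition adjustment, so no direction of this difference is given.

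Among single genes with a lower difference, Enpp2, which encodes the lysophospholipase autotaxin, rose from 12.4 ± 0.632 to 116 ± 4.16 CPM with shGFP (SD, n = 4) and from 19.9 to 21.4 CPM to 64.8 to 74.7 CPM with shAnkrd35 (difference -1.45 ± 0.08, adjusted p = 3.55e-09). Padi4, a histone citrullinating enzyme, rose from 9.99 ± 0.696 to 21.4 ± 1.26 CPM with shGFP and fell from 13.5 to 14.5 CPM to 8.20 to 9.61 CPM with shAnkrd35 (difference -1.76 ± 0.10). Ckb, creatine kinase B, and Tns4, a tensin, were at overlapping levels in 2D and 3D shGFP, and both fell with shAnkrd35, to 29.5 to 31.2 CPM and to 46.0 to 53.3 CPM. Cldn2, a pore-forming claudin, was at 281 to 296 CPM in 2D shGFP and at 523 to 579 CPM in the other 3 groups (difference -0.91 ± 0.06). Its fold change with shAnkrd35 was 0.05, and 0.24 after composition adjustment. Igfbp3, an IGF carrier, rose from 15.7 ± 1.10 to 50.3 ± 2.04 CPM with shGFP and was at 38 to 52 CPM throughout with shAnkrd35 (0.17 ± 0.07). That call was lost without replicate 1 (0.11) or 2 (0.18) of 2D shAnkrd35 and without replicate 2 (0.14) or 3 (0.15) of 3D shAnkrd35, and the value was 0.44 after composition adjustment. Cd14, a lipopolysaccharide coreceptor, rose with both hairpins and less with shAnkrd35 (difference -0.80 ± 0.06).

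**Figure D5:**
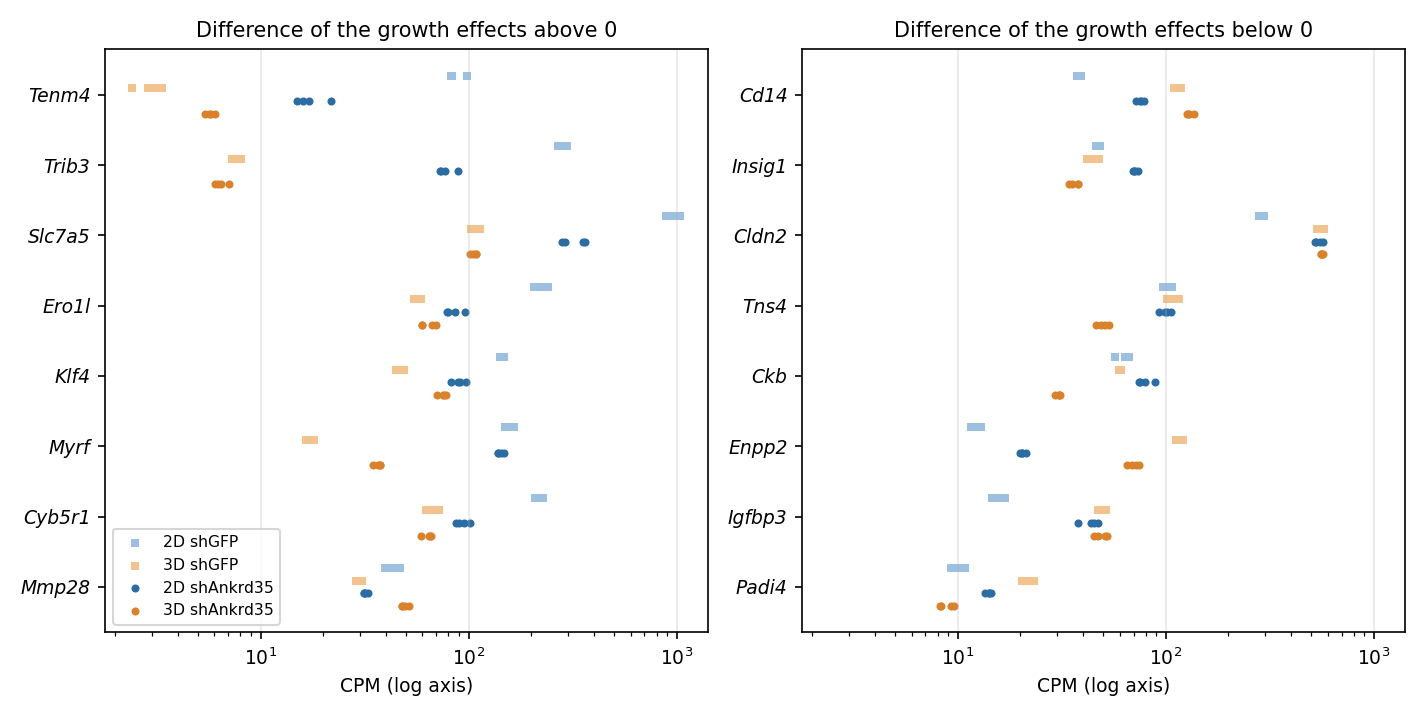
Level in each library (CPM, log axis) of the 16 genes named for the difference of the growth effects, 8 above 0 (left) and 8 below 0 (right), with squares for shGFP and circles for shAnkrd35. For Trib3, Slc7a5 and Ero1l the 3D groups lie together while 2D shGFP lies above 2D shAnkrd35.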

How the data were processed

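The 16 libraries were made from RNA of mouse LKR10 cells after oligo(dT) selection. Reads were trimmed with Trimmomatic 0.38, aligned with STAR 2.5.1b to mm10 and normalized with edgeR, per the submitters' processing notes. How reads were counted, on which annotation, with or without strand, and how low genes were dropped is not given in the sources used here. The deposited table holds log2 CPM of 12321 genes, which the authors scaled by effective library size with a small prior count. Removing the prior gave whole reads for 100.0% of values (tolerance 0.01 reads), with 13821342 to 25461065 reads in the 8 libraries compared. Intervals cover counting error only, and reads are not independent molecules. 0 columns belonged to other samples.

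The deposited log2 values were fitted with limma 3.58.1 (R 4.3.3, statmod 1.5.0), with a variance trend and robust fitting, over all 16 libraries as 4 group means, which leaves 12 residual degrees of freedom. Genes needed 1 CPM in at least 4 libraries, which left out Ankrd35 alone. That gene was compared with an exact permutation test (Python 3.11.15, SciPy 1.17.1). P-values were adjusted by Benjamini-Hochberg over all genes tested. The design allowed for counts or linear values, and the table was already on the log2 scale. The fit was checked on simulated data with known fold changes. These had no trend on GC content or length and the same spread in every group. The check therefore does not cover data with such trends or with unequal spreads. Exonic length and GC content came from GENCODE M21, matched for 99.2% of genes. Promoter windows came from RefSeq GRCm38.p6.

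The gene lists and the comparison were chosen with earlier results of these data known. Named genes are Ankrd35, the 12 largest rises and falls whose groups do not overlap and whose mean reaches 5 CPM, the 6 largest gains and losses in CPM, the 3 members with the smallest p and the most abundant member of each described list, and the 8 genes each way with the smallest p for the difference of growth effects. Unnamed gene models were left out. Other list members were named after their values were seen, and some genes that the rule selects are not reported here. Alternatives were other filters, scalings, pseudocounts, variance models, weights, a replicate block, removal of trends on length and GC content, and leaving out each library.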

Additional observations from a re-analysis of the deposited data

Results flagged for a closer look

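The growth effect with shAnkrd35 differed from that with shGFP, by the limma test of the difference with Benjamini-Hochberg adjustment, in 83 of the 132 named genes. Among all genes tested the share was 35.8%, but the named genes were chosen for large or precise changes, so the shares are not comparable. After removal of the length and GC trend 67 of the 83 passed the test in the same direction and 16 did not. Of those 16, the ones reported here are mt-Nd5, mt-Nd6, Slc12a2, Pfkp, Meltf, Lgals1, Aqp5, Rplp1, Gsr, Itgb3, Krt8, Ldha, Aldh3a1, Tpi1 and Csf1. The values that follow, for those of the 83 reported here, are log2 differences, shAnkrd35 minus shGFP, before that removal. Of the 83, 16 were named for such a difference. The largest positive differences were in Tenm4 (3.26), Trib3 (1.61), Ero1l (1.57), Slc7a5 (1.57), Klf4 (1.39), Avil (1.36), Muc5ac (1.29), Malat1 (1.28) and Samd9l (1.28). Next came Chac1 (1.21), Myrf (1.21), Cyb5r1 (1.15), Cenpe (1.11), Mmp28 (1.11), Mki67 (1.01), Pycr1 (0.87), Plk2 (0.87) and Epas1 (0.84). Among these, the 2D shGFP libraries varied widely for Malat1 (930 to 2130 CPM), Samd9l (6.76 to 23.7), Cenpe (15.1 to 48.4) and Mki67 (130 to 305). The differences of these genes had SEs of 0.35, 0.40, 0.39 and 0.32, against 0.10 for Trib3. Smaller positive differences were found in Sesn2 (0.84), Mthfd2 (0.77), Timp3 (0.75), Cth (0.71), Itga6 (0.65), Slc38a2 (0.63), Dnajc3 (0.61), Fbln2 (0.60) and Atf5 (0.54). The smallest were in mt-Nd6 (0.52), Myh9 (0.50), mt-Nd5 (0.50), Hsp90b1 (0.50), Aldh1a3 (0.48), Slc12a2 (0.45), Eef2 (0.40), mt-Cytb (0.40) and Canx (0.33). Last came Etv5 (0.24) and Pfkp (0.23).

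The most negative differences were in Padi4 (-1.76), Ccl2 (-1.63), Igfbp3 (-1.51), Enpp2 (-1.45), Ehf (-1.39), Ckb (-1.32), Serpina7 (-1.23), Agt (-1.09) and Tns4 (-1.08). They were followed by Mmp13 (-1.02), Cyr61 (-1.02), Hnf4a (-1.01), Cldn2 (-0.91), Acta2 (-0.88), Insig1 (-0.87), Ctgf (-0.85), Cd14 (-0.80) and Egln3 (-0.78). Intermediate negative values belonged to Nr4a2 (-0.71), Thbs1 (-0.64), Cyp51 (-0.56), Dusp6 (-0.55), Meltf (-0.55), Ankrd1 (-0.53), Cnn2 (-0.52), Vcam1 (-0.48) and Aldoc (-0.47). Nearer to 0 lay C3 (-0.46), Axl (-0.42), Ccna2 (-0.42), Csrp1 (-0.41), Lgals1 (-0.38), Aqp5 (-0.38), Rplp1 (-0.34) and Gsr (-0.32). The least negative were Itgb3 (-0.28), Krt8 (-0.27), Col6a2 (-0.26), Ldha (-0.26), Zyx (-0.25), Aldh3a1 (-0.25), Tpi1 (-0.23) and Csf1 (-0.21).

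In 264 checks of 4 libraries each, covering the named genes in both groups, 16 single libraries lay far from the other 3, where the gap to the nearest library exceeded Dixon's 95% critical share of the range. Chance gives about 1 in 20 such cases. Of the 16, 8 were in replicate 4 of 3D shAnkrd35: Timp2 (775 CPM), Itga6 (151 CPM), Junb (100 CPM), Cenpe (104 CPM), Mki67 (483 CPM), Cat (126 CPM), Elf3 (13.2 CPM) and Sox9 (113 CPM). Replicate 1 of 2D shAnkrd35, which stood apart across genes too, held 4: Fn1 (3200 CPM), Itgb3 (39.1 CPM), Plk2 (178 CPM) and Aqp5 (127 CPM). The other 4 were Akr1c19 (18.6 CPM) in 3D shAnkrd35 replicate 1, Chac1 (1.82 CPM) in 3D shAnkrd35 replicate 3, Pkm (3470 CPM) in 2D shAnkrd35 replicate 4 and Jun (49 CPM) in 2D shAnkrd35 replicate 2.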

How the results depend on the processing

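Of 148 tests of named genes, 131 kept their direction and side of the threshold under all alternatives run for them and 17 did not. Genes higher in 3D numbered 4012 to 4412 and lower 4161 to 4630 when each library was left out, at least 2-fold 1242 to 1428 and 313 to 410. The difference between hairpins had 1579 to 2852 genes above 0 and 1823 to 2897 below, lowest without replicate 3 and highest without replicate 1 of 2D shAnkrd35. Dropping genes that averaged under 5 CPM left 875 at least 2-fold higher and 219 lower, against 1348 and 351 in the main fit. Fewer genes were tested there, and whether this alone lowered the counts was not tested. Library weights raised the differences above 0 to 3623, and the cause was not tested. Precision weights, chosen after seeing the data, gave 4249 higher and 4444 lower. A fit of the 8 shAnkrd35 libraries alone gave 4022 higher and 4047 lower. With the length and GC trend removed, with or without the replicate block, values of mt-Nd1 (-0.02), mt-Co1 (-0.49), mt-Nd5 (-0.40), mt-Nd6 (-0.72), Klf4 (0.04), Ldha (0.19), Top2a (-0.10), Canx (-0.24) and Krt8 (0.13) changed sign. Of these, mt-Nd1, Klf4 and Krt8 did not pass the test after the trend removal without the block. The list medians of hypoxia (0.01), glycolysis (0.01), citric acid cycle (0.04), oxidative phosphorylation (0.05) and ribosome biogenesis genes (0.05) also changed sign. They stayed below the median of all genes, which was 0.06 after the removal. The medians of mitochondrial (-0.44) and Wnt, Notch and hedgehog genes (0.12) changed sign too. With a mean of at least 5 CPM, so did that of matrix genes (-0.07). Why these signs changed was not tested. The Ankrd35 difference was 0.313 CPM and 0.267 to 0.358 CPM without each library, where the exact permutation p was 0.0571, the smallest 3 against 4 allows. No pairing by replicate number was apparent: same-numbered 2D and 3D libraries had correlations of -0.18, -0.10, 0.28 and 0.03 over 10250 genes. Differently numbered ones ran from -0.49 to 0.57, a spread too wide for these values to tell whether the numbers pair the samples. The replicate block gave 4204 higher and 4385 lower, with 1891 differences above 0 and 2121 below. Tests in edgeR and DESeq2 were planned and not run because the deposited unit is log2, although whole reads could be recovered. Depth limits Ankrd35, with at most 12 reads in each shAnkrd35 library.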
